A study of Mus musculus with 4 samples.

Results

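The collagen genes are the 44 genes whose symbol consists of Col, a type number, the letter a and a chain number, out of 32285 genes counted in each library. By the form of the protein they make, 11 are fibrillar, 9 form networks, 9 belong to the FACIT class (fibril-associated collagens with interrupted triple helices) and 15 are of other forms. They were read in droplet single-cell RNA-seq of 4 cultures of mouse cells, each a single library (10x Genomics, 3′ ends). DFAT cells (libraries iWAT_DFAT and eWAT_DFAT) are adipocytes of inguinal or epididymal white adipose tissue that lost their lipid and became spindle-shaped in ceiling culture. The other libraries (iWAT_ASPC and eWAT_ASPC) hold what grew from the non-floating, stromal vascular fraction of these depots. GEO's labels call them SVF cells and the study calls them adipose stem and progenitor cells (ASPCs). All 4 come from chow-fed male C57BL/6J mice with no transgene or drug treatment named for them, and the sources used here state neither the age nor the number of animals behind a library. The ASPC cultures are mixed by origin, and the DFAT label of these libraries rests on the floating layer that seeded the flask, not on a lineage mark. For separate ceiling cultures of marked eWAT adipocytes, the paper reports that most spindle-shaped cells kept the mark. Its cultures from mice with marked ASPCs gave no marked cells, by which it excludes ASPC contamination. Barcodes with markers of other cell types occurred in all 4 libraries and are described further on.

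Collagens are proteins whose 3 chains wind into a triple helix. Most are secreted, and some, such as that of *Col23a1*, are transmembrane proteins. Fibrillar chains such as those of types I, III and V build the cables of connective tissue, type IV chains build the sheet-like network of basement membranes, and type VI chains build beaded filaments that link cells to fibrils. In fat, fibroblast-like progenitors make much of the interstitial collagen, and each adipocyte is wrapped in a basement membrane. Chains are hydroxylated, folded and exported as trimers, and fibrillar ones are then trimmed of their propeptides and crosslinked.

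Barcodes with 5000 to 75000 unique molecular identifiers (UMIs, 1 per captured RNA), 200 to 7500 genes and under 10% mitochondrial UMIs were kept, which left 6464 to 7629 barcodes and 183664704 to 199357348 UMIs per library. Median depth per barcode was 22111 UMIs in the iWAT_DFAT library and 24930 to 27617 in the others. Levels are UMIs summed over the kept barcodes per 1000000 UMIs (CPM), so a collagen level is a share of captured RNA molecules and was not scaled by gene length. Of 28165 distinct barcode sequences, 97 occurred in more than 1 library. Between 95.8% and 99.6% of barcodes had UMIs for 3 or more of 11 ASPC markers. This rule does not separate cell types. In eWAT_ASPC 97.9% of barcodes met it, and 12.6% had 3 or more markers of another cell type. *Pdgfra*, the receptor used to define these progenitors, was at 246 CPM in iWAT_DFAT, 95.2 in eWAT_DFAT, 84.5 in iWAT_ASPC and 82.5 in eWAT_ASPC. Where 4 values are given for a gene or class with no library named, they are in this order of libraries. The markers of the list did not share 1 order. *Pdgfrb* was at 97.55, 84.9, 135 and 115 CPM and *Thy1* at 83.9, 20.9, 248 and 131 CPM, both higher in the ASPC libraries. *Dcn* was at 1687, 255, 181 and 299 CPM, highest in iWAT_DFAT. *Lep*, a hormone of mature adipocytes, had no UMI in any library. Other adipocyte markers did, mostly in the DFAT libraries. *Plin1* was at 13.9, 27.3, 0.286 and 0.764 CPM, *Car3* at 4.06, 29.7, 0.0301 and 0.0101 CPM and *Pck1* at 0, 0.129, 0 and 0 CPM. With 1 library per condition there was no replicate check and no test, and the 95% intervals given here cover counting error only.

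The 250 bases before the start of 6 members are shown as examples of members with different orders of the libraries, a choice made after their values had been seen. Col24a1 (chr3:145292222-145292471, plus strand), Col5a3 (chr9:20815068-20815317, minus strand) and Col23a1 (chr11:51289670-51289919, plus strand) were highest in the iWAT_DFAT library. Col11a1 (chr3:114030290-114030539, plus strand) and Col8a1 (chr16:57754738-57754987, minus strand) were lowest in that library, and Col3a1 (chr1:45311288-45311537, plus strand) was lowest in the eWAT_DFAT library. The sequences are from RefSeq (GRCm38.p6), written 5′ to 3′ on the strand of the gene, and none of them overlaps an annotated exon. Capitals mark the CCAAT box, the GC box letters GGGCGG and the TATA box letters TATAAA, on either strand.
Col24a1: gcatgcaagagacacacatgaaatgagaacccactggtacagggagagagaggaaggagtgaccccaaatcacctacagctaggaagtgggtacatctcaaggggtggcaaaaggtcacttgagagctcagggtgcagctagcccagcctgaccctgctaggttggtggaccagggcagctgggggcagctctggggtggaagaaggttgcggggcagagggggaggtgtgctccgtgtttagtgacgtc
Col5a3: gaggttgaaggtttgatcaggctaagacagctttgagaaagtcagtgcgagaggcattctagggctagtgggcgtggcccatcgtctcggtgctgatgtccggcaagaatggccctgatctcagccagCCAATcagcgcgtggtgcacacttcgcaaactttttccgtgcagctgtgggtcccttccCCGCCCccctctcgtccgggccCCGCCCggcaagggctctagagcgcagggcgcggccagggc
Col23a1: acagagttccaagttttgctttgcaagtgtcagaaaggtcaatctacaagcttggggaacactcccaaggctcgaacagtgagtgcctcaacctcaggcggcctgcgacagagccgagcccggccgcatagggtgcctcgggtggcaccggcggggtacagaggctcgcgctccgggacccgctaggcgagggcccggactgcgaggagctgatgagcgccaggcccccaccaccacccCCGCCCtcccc
Col11a1: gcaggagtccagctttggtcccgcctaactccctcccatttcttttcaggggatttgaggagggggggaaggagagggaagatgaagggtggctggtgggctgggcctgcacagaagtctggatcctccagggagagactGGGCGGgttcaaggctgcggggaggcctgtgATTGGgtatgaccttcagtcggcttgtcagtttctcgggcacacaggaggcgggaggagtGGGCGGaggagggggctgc
Col8a1: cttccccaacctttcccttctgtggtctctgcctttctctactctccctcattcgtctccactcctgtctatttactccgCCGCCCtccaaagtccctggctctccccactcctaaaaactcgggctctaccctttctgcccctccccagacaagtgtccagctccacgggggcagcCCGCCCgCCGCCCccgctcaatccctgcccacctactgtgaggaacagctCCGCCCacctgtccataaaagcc
Col3a1: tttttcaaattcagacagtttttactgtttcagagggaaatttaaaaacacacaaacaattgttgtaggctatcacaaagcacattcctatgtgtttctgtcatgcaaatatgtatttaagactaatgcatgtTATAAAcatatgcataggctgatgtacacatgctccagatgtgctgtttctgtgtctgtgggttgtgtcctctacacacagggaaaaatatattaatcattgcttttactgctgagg
The window of *Col24a1* held none of these letters, whereas that of *Col3a1* held 1 TATA box match and those of *Col11a1*, *Col5a3* and *Col8a1* held 2, 2 and 4 GC box matches. RefSeq windows were matched for 35 of the 44 members, 38 windows in all. The GC box letters stood in 57.89% of these and in 32.74% of 32851 windows of all genes, the CCAAT box in 34.21% and 33.85%, and the TATA box letters in 13.16% and 12.37%. On the other strand the CCAAT box ends in G letters that it can share with a GC box match. A match is a description of the letters and not a binding site.

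Collagen made up 0.777% of UMIs in the iWAT_DFAT library, 0.436% in the eWAT_DFAT library, 1.11% in the iWAT_ASPC library and 1.03% in the eWAT_ASPC library. Both ASPC libraries were thus above both DFAT libraries, and the eWAT_DFAT library was lowest. On the log2 scale the summed level was higher by 0.83 (0.83 to 0.84) in iWAT_DFAT than in eWAT_DFAT cells and by 0.11 (0.11 to 0.12) in iWAT_ASPC than in eWAT_ASPC cells. Against ASPCs of the same depot the log2 ratio was -0.52 (-0.52 to -0.52) for iWAT and -1.24 (-1.24 to -1.24) for eWAT. The median barcode held 0.700%, 0.368%, 1.095% and 0.982% collagen UMIs, with 5th and 95th percentiles of 0.214% and 1.86% in the iWAT_DFAT library, 0.110% and 1.02% in the eWAT_DFAT library, 0.367% and 1.90% in the iWAT_ASPC library and 0.303% and 1.74% in the eWAT_ASPC library, so the cells of any pair of libraries overlapped. Free RNA, taken from droplets of 1 to 100 UMIs, held 0.839%, 0.423%, 1.31% and 0.968% collagen UMIs, the same order as the cells. Its part in the levels was not estimated. The closing section gives summed ratios after an assumed 5% or 10% of UMIs was subtracted with each library's own free RNA. Since that RNA held a collagen share of similar size to its cells, such a subtraction could move the summed ratios little.

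The fibrillar and FACIT sums ranked the libraries as the total did, and the network and other sums did not. Fibrillar collagens summed to 6072 CPM in the iWAT_DFAT library, 2608.5 CPM in the eWAT_DFAT library, 8524 CPM in the iWAT_ASPC library and 7720 CPM in the eWAT_ASPC library. Network collagens summed to 671, 1184, 1721 and 1961 CPM. The fibrillar sum was therefore lowest in eWAT_DFAT cells and the network sum lowest in iWAT_DFAT cells, with log2 ratios between iWAT_DFAT and eWAT_DFAT of 1.22 (1.21 to 1.22) and -0.82 (-0.83 to -0.81). Network genes made up 27.2% of collagen UMIs in the eWAT_DFAT library against 8.63% in the iWAT_DFAT library, 15.45% in the iWAT_ASPC library and 19.0% in the eWAT_ASPC library. FACIT genes summed to 334, 226, 439 and 348.5 CPM. The remaining forms, mainly type VI, summed to 691, 342, 458 and 276 CPM and were the only class of the 4 that was highest in a DFAT library.

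**Figure D1:**
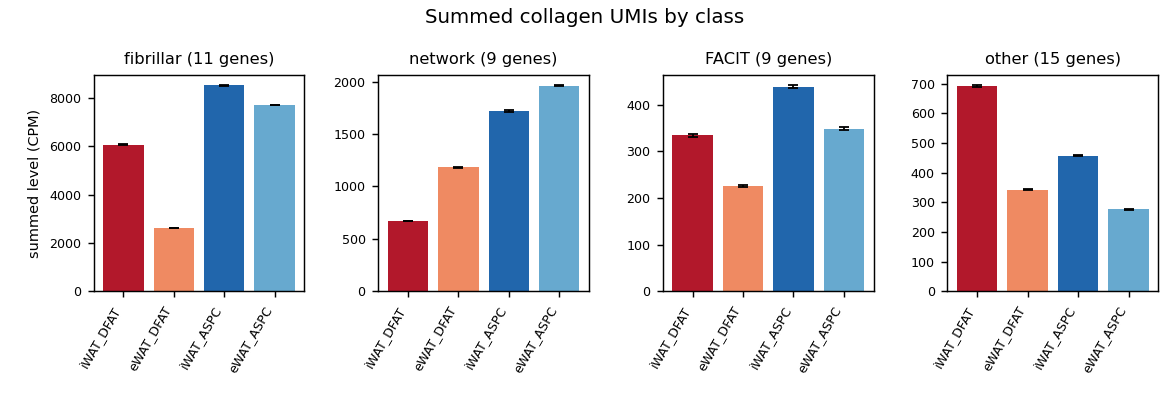
Bars give the summed level of each collagen class in CPM, 1 panel per class with its own axis from 0, for the 4 libraries, and error bars are exact 95% Poisson intervals. Fibrillar genes are lowest in eWAT_DFAT (2608.5 CPM), network genes in iWAT_DFAT (671 CPM), and the other forms are highest in iWAT_DFAT (691 CPM).

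Of the 44 members, 24 reached a mean of 5 CPM over the 4 libraries and enter the counts below, 16 reached 100 CPM in some library and 14 stayed under 1 CPM in all. The 24 comprise 9 fibrillar, 5 network, 3 FACIT and 7 other genes. Among them the iWAT_DFAT library held the highest level of 9 and the lowest of 6, the eWAT_DFAT library the highest of 1 and the lowest of 11, the iWAT_ASPC library the highest of 7 and the lowest of 0, and the eWAT_ASPC library the highest of 7 and the lowest of 7. This ranking was not counted over all genes, so whether it is particular to the collagens is not known.

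**Figure D2:**
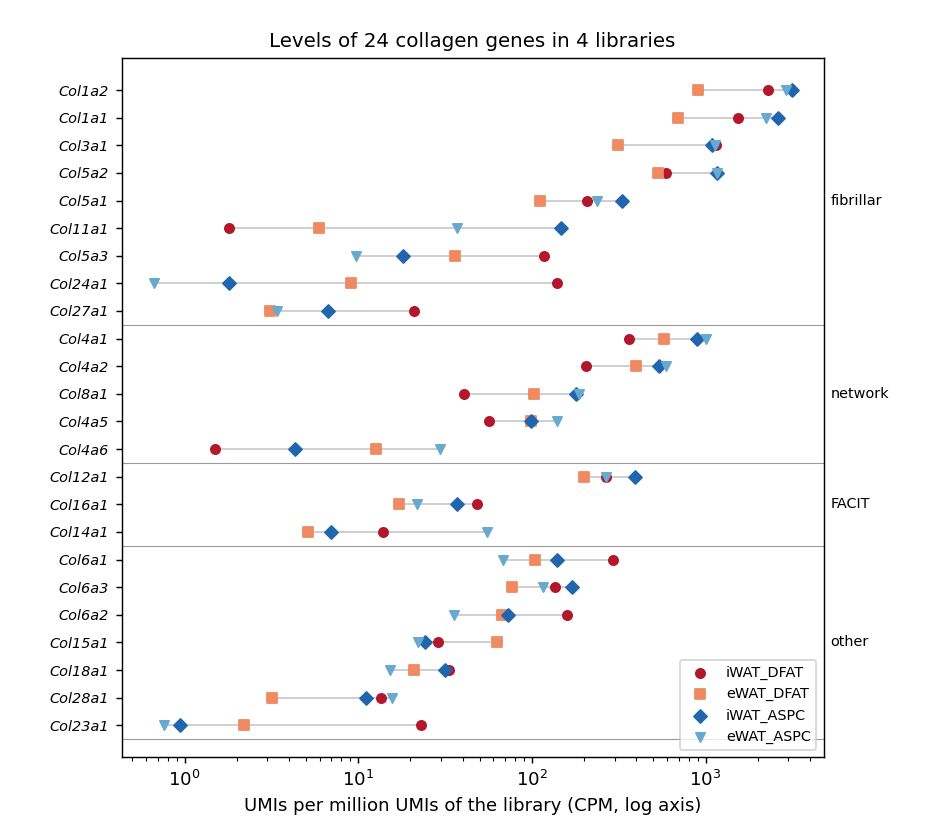
Each row is 1 of 24 collagen genes, grouped by class, and each point is its level in 1 library in CPM on a log axis. *Col24a1* spans 0.663 to 139 CPM and *Col11a1* 1.80 to 148 CPM, the first highest in iWAT_DFAT and the second lowest there, whereas *Col12a1* stays between 200.4 and 390 CPM.

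The chains of type I collagen, the main fibril of connective tissue, were among the most abundant RNAs of the family. *Col1a1* (GRCm38 chr11:94936224-94953042) stood at 1546, 693, 2621 and 2226 CPM. *Col1a2* (chr6:4504814-4541544) stood at 2298, 902, 3137 and 2914 CPM. *Col3a1* (chr1:45311538-45349706), the fibril chain of type III that assembles with type I, stood at 1147, 315, 1088 and 1130 CPM. The eWAT_DFAT library was the low one for all 3 genes, by log2 ratios of -1.68 to -1.84 against eWAT_ASPC, and for *Col3a1* the other 3 libraries were close to each other. After each barcode was thinned to 5000 UMIs, *Col1a1* was detected in 93.7% (93.1 to 94.2), 77.0% (76.0 to 78.1), 97.6% (97.2 to 97.9) and 96.2% (95.7 to 96.6) of barcodes, with 98.8%, 91.1%, 98.45% and 97.4% before thinning. In barcodes with 6 or more of 12 endothelial markers, a type that makes little of it, the thinned shares were 40.0%, 21.1%, 39.6% and 20.5%, at median depths of 17487, 11794, 16075 and 14717.5 UMIs.

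Type V chains set the diameter of type I fibrils. *Col5a1* was at 208, 111, 332 and 238.5 CPM, and *Col5a2* at 593, 534, 1169 and 1161 CPM. *Col5a2* thus separated DFAT cells from ASPCs in both depots, with log2 ratios of -0.98 and -1.12, and hardly differed between the depots, with 0.15 in DFAT cells and 0.01 in ASPCs. *Col5a3* (chr9:20770050-20815067), the less common chain, was at 117, 36.0, 18.2 and 9.65 CPM, so both DFAT libraries stood above both ASPC libraries. It was 6.45-fold (6.225 to 6.68) higher in iWAT_DFAT than in iWAT_ASPC cells and 3.73-fold (3.545 to 3.93) higher in eWAT_DFAT than in eWAT_ASPC cells, and this last log2 ratio of 1.90 ran from 1.67 to 2.52 over the alternatives.

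The fibrillar genes with the widest differences were *Col24a1* and *Col11a1*. *Col24a1* (chr3:145292472-145552011), a fibrillar chain known from developing bone and cornea, was at 139, 9.12, 1.81 and 0.663 CPM. It was 76.85-fold (69.3 to 85.5) higher in iWAT_DFAT than in iWAT_ASPC cells, 13.75-fold (11.5 to 16.6) higher in eWAT_DFAT than in eWAT_ASPC cells and 15.3-fold (14.5 to 16.04) higher in iWAT_DFAT than in eWAT_DFAT cells. The log2 ratio of eWAT_DFAT to eWAT_ASPC, 3.78, ran from 3.03 in the 25% of barcodes lowest in cell cycle UMIs to 5.51 without barcodes with 3 or more markers of another cell type. In thinned barcodes it was detected in 37.95% (36.86 to 39.05) of iWAT_DFAT, 3.45% (3.02 to 3.92) of eWAT_DFAT, 0.714% (0.535 to 0.933) of iWAT_ASPC and 0.430% (0.288 to 0.617) of eWAT_ASPC barcodes, and in 64.8%, 12.6%, 3.00% and 1.36% before thinning. The endothelial-marker barcodes gave 15% (3.21 to 37.9) for iWAT_DFAT, on 20 barcodes, 0% (0 to 2.48) for eWAT_DFAT, 0% (0 to 6.72) for iWAT_ASPC and 0.758% (0.0192 to 4.15) for eWAT_ASPC. The intervals of both ASPC libraries lay within those of their endothelial-marker barcodes. In eWAT_ASPC the mesothelial-marker barcodes described further on gave 4.90%, against 0.0678% in barcodes without 3 or more markers of another cell type.

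*Col11a1* (chr3:114030540-114220718), a chain of the type XI fibrils of cartilage, was at 1.80, 5.92, 148 and 37.1 CPM. It was 81.97-fold lower in iWAT_DFAT than in iWAT_ASPC cells and 6.27-fold lower in eWAT_DFAT than in eWAT_ASPC cells (log2 ratios -6.36, -6.52 to -6.20, and -2.65, -2.74 to -2.56). The inguinal library was the higher one in ASPCs and the lower one in DFAT cells. Free RNA held it at 1.24 CPM in iWAT_DFAT and 4.86 CPM in eWAT_DFAT, close to the cells. In thinned barcodes it was detected in 0.747% (0.566 to 0.967) of iWAT_DFAT and 2.43% (2.07 to 2.83) of eWAT_DFAT barcodes. These intervals overlapped those of their endothelial-marker barcodes, 0% (0 to 16.8) and 0% (0 to 2.48). The thinned shares were 41.5% in iWAT_ASPC and 12.1% in eWAT_ASPC. *Col27a1*, a fibrillar chain of cartilage and other tissues, was at 20.9, 3.09, 6.73 and 3.39 CPM, highest in iWAT_DFAT cells. *Col2a1* and *Col11a2*, the other fibrillar members, stayed at or under 1.11 and 0.234 CPM.

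Network genes were led by the basement membrane chains *Col4a1* (chr8:11198423-11312826, minus strand) and *Col4a2* (chr8:11312805-11449287, plus strand), which lie head to head with start sites whose transcripts overlap by 22 bases. *Col4a1* was at 365, 573, 892 and 1004 CPM. *Col4a2* was at 205, 395, 539 and 591 CPM. Both were lowest in iWAT_DFAT, then came eWAT_DFAT and iWAT_ASPC, and both were highest in eWAT_ASPC. *Col4a5*, a chain found in many basement membranes, was at 56.6, 98.4, 99.4 and 140 CPM and its head-to-head neighbour *Col4a6*, a chain of specialised basement membranes, at 1.503, 12.7, 4.31 and 29.5 CPM. For *Col4a6* both epididymal libraries stood above both inguinal ones, by 8.45-fold in DFAT cells and 6.83-fold in ASPCs. The kidney and lung chains were low, with *Col4a3* at 0.120, 0.318, 0.125 and 2.15 CPM and *Col4a4* at 1.465, 1.315, 2.40 and 5.29 CPM. *Col8a1*, a chain of the hexagonal lattice of type VIII found under endothelium, was at 40.6, 103, 180 and 187 CPM, and its partner *Col8a2* at 0.196, 0.291, 3.57 and 2.29 CPM. The log2 ratio of *Col8a1* between iWAT_DFAT and iWAT_ASPC, -2.15, ran from -2.80 to -2.12 over the alternatives.

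FACIT members sit on the surface of fibrils. *Col12a1*, which binds type I fibrils, was at 267, 200.4, 390 and 268.5 CPM. *Col14a1* (chr15:55307750-55520803), a relative that limits fibril growth, was at 13.9, 5.11, 7.01 and 55.5 CPM. It was 10.9-fold lower in eWAT_DFAT than in eWAT_ASPC cells (log2 ratio -3.44, -3.54 to -3.35), while in iWAT the DFAT library was the higher by 0.99 on the log2 scale. That value was 0.40 after thinning and 1.66 without barcodes with 3 or more markers of another cell type, which left *Col14a1* at 4.44 CPM in iWAT_ASPC. *Col16a1* was at 48.6, 17.1, 37.2 and 21.9 CPM, so both inguinal libraries were above both epididymal ones. The other 6 FACIT genes stayed under 5 CPM in every library. They were led by *Col20a1* at 3.70, 2.40, 2.89 and 1.615 CPM, and *Col9a1* had 2 UMIs in the eWAT_DFAT library and none elsewhere, with upper Poisson limits of 0.0185 to 0.0201 CPM.

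Type VI genes led the remaining class. *Col6a1* was at 292, 104, 139 and 68.1 CPM and *Col6a2* at 160, 67.5, 72.8 and 35.6 CPM. Both were 2-fold or more higher in iWAT_DFAT cells than in every other library, and in ASPCs they were 2.043-fold and 2.045-fold higher in the inguinal library. *Col6a3*, the large chain whose cleaved end is endotrophin, was at 136, 76.8, 171 and 116 CPM, an order unlike that of its partners. *Col6a4*, *Col6a5* and *Col6a6* stayed at or under 0.3485, 0.2209 and 0.185 CPM.

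Multiplexins carry a C-terminal fragment with anti-angiogenic activity and sit near basement membranes. *Col15a1* was at 28.8, 63.0, 24.4 and 22.0 CPM, the 1 member of the 24 that was highest in eWAT_DFAT cells, and *Col18a1* was at 33.2, 21.0, 31.7 and 15.2 CPM, against 28.5, 13.2, 8.51 and 11.1 CPM in the barcodes without 3 or more markers of another cell type. *Col23a1*, a transmembrane collagen, was at 23.0, 2.20, 0.943 and 0.764 CPM, the same order as *Col24a1* and *Col5a3*, and 24.4-fold (21.0 to 28.3) higher in iWAT_DFAT than in iWAT_ASPC cells. Its log2 ratio of eWAT_DFAT to eWAT_ASPC, 1.53, ran from 1.16 to 2.42 over the alternatives. *Col28a1*, known from peripheral nerve, was at 13.6, 3.17, 11.1 and 15.7 CPM. *Col7a1*, the anchoring fibril of skin, was at 3.03, 3.265, 6.21 and 1.99 CPM. All 20 members under the mean of 5 CPM together summed to 11.4, 10.75, 18.85 and 15.1 CPM.

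Between iWAT_DFAT and eWAT_DFAT cells, 12 of the 24 members were past 2-fold higher and 4 past 2-fold lower in iWAT_DFAT, against 7.43% and 3.59% of the 10033 genes at a mean of 5 CPM or more. The median log2 ratio was 1.03 over the members and 0.09 over all these genes. Among the 12 were 6 of 9 fibrillar genes (*Col1a1*, *Col1a2*, *Col3a1*, *Col5a3*, *Col24a1* and *Col27a1*), 0 of 5 network genes, 2 of 3 FACIT genes (*Col14a1* and *Col16a1*) and 4 of 7 others (*Col6a1*, *Col6a2*, *Col23a1* and *Col28a1*). The 4 lower members were *Col11a1*, *Col4a6*, *Col8a1* and *Col15a1*, of which *Col15a1*, at -1.13, was at -0.80 in the 25% of barcodes lowest in cell cycle UMIs. All 5 network genes had a log2 ratio under 0, with a median of -0.94.

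Between iWAT_ASPC and eWAT_ASPC cells, 5 members were past 2-fold higher in iWAT_ASPC (*Col11a1*, *Col24a1*, *Col6a1*, *Col6a2* and *Col18a1*) and 2 past 2-fold lower (*Col14a1* and *Col4a6*), against 2.74% and 3.4% of all genes. The median log2 ratio was 0.27 over the members and 0.05 over all genes. *Col11a1* was 3.98-fold (3.88 to 4.09) higher and *Col14a1* 7.91-fold lower in iWAT_ASPC. The log2 ratio of *Col14a1*, -2.98, ran from -2.31 after thinning to -3.75 without barcodes with 3 or more markers of another cell type. The call of *Col18a1* turned to -0.38 on the log2 scale without the barcodes that held 3 or more markers of another cell type (440 in iWAT_ASPC and 847 in eWAT_ASPC), and that of *Col24a1* ranged from 0.84 to 3.37 over the alternatives. With median-of-ratios scaling *Col6a1* and *Col6a2*, both at 1.03, were at 0.92.

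Against iWAT_ASPC, 6 members were past 2-fold higher in iWAT_DFAT (*Col24a1*, *Col23a1*, *Col5a3*, *Col27a1*, *Col6a1* and *Col6a2*) and 5 past 2-fold lower (*Col11a1*, *Col8a1*, *Col4a1*, *Col4a2* and *Col4a6*), beside 8.9% and 4.83% of all genes. Network genes made up 4 of the 5 lower members and had a median log2 ratio of -1.39. Medians over the members and all genes were -0.13 and 0.08. Against eWAT_ASPC, 4 members were past 2-fold higher in eWAT_DFAT (*Col24a1*, *Col5a3*, *Col23a1* and *Col15a1*) and 9 past 2-fold lower, beside 5.72% and 5.94%. Of these 9, 6 were fibrillar (*Col1a1*, *Col1a2*, *Col3a1*, *Col5a1*, *Col5a2* and *Col11a1*), and the others were *Col14a1*, *Col28a1* and *Col4a6*. The medians were -0.59 over the members and 0.07 over all genes. *Col24a1*, *Col5a3* and *Col23a1* were past 2-fold higher, and *Col11a1* and *Col4a6* past 2-fold lower, in the DFAT library of both depots. The *Col4a6* value for eWAT, -1.21, was -0.94 and no longer past 2-fold without barcodes with 3 or more markers of another cell type, and *Col6a1* for iWAT, 1.07, was 0.99 with median-of-ratios scaling. Each library enters 2 of the 4 comparisons, so they are not independent.

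**Figure D3:**
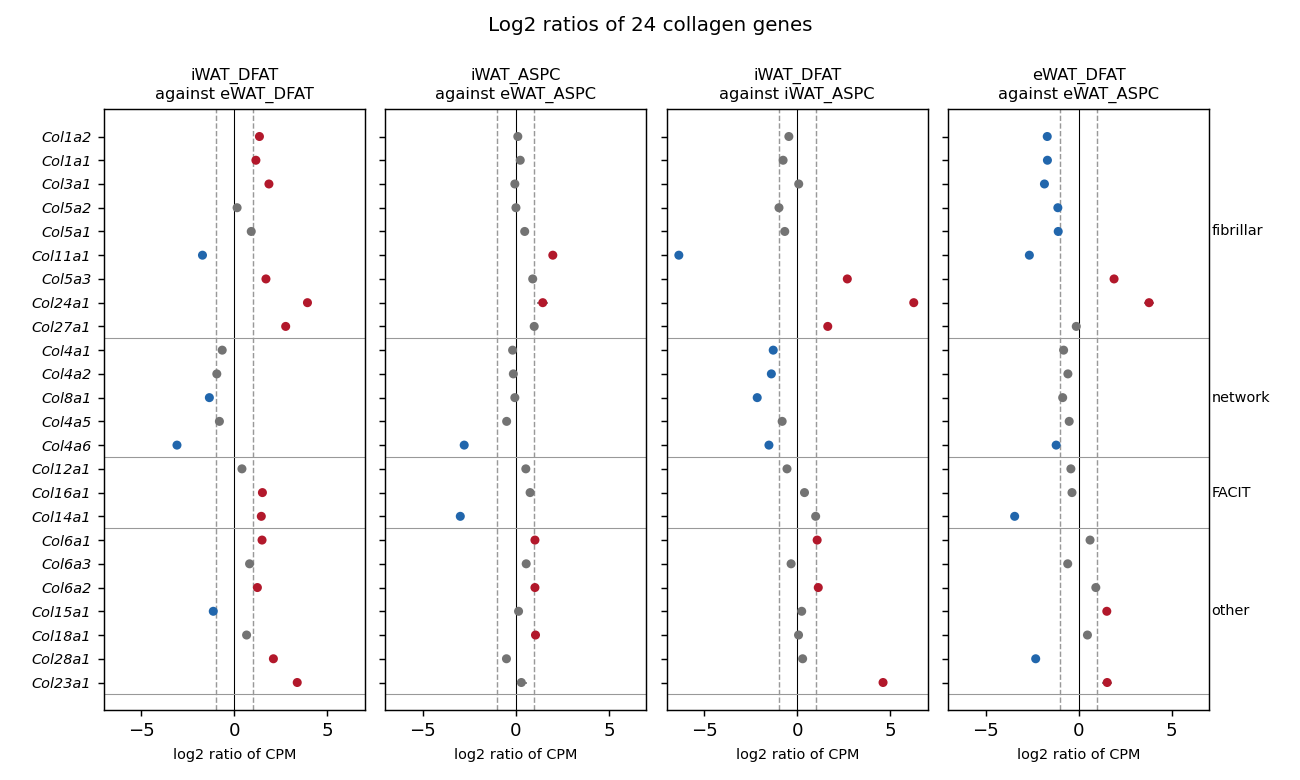
Points give the log2 ratio of CPM of 24 collagen genes in 4 comparisons with exact 95% counting intervals, red past 2-fold higher and blue past 2-fold lower in the library named first, with dashed lines at 2-fold. Of the 24 genes, 12 are red between iWAT_DFAT and eWAT_DFAT and 9 are blue between eWAT_DFAT and eWAT_ASPC.

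Some chains of 1 molecule kept their ratio across the libraries and others did not. The UMI ratio of *Col1a1* to *Col1a2* was 0.673, 0.768, 0.835 and 0.764, that of *Col4a1* to *Col4a2* 1.775, 1.45, 1.66 and 1.70, and that of *Col6a1* to *Col6a2* 1.83, 1.54, 1.91 and 1.91. The highest and the lowest of these differed by 1.225-fold to 1.241-fold. The ratio of *Col6a3* to *Col6a2* was 0.850, 1.14, 2.34 and 3.26, a 3.83-fold span with both ASPC libraries above both DFAT libraries. The ratio of *Col5a3* to *Col5a2* was 0.198 (0.195 to 0.201), 0.0675, 0.01555 and 0.00831 (0.00794 to 0.00870), a 23.8-fold span. That of *Col5a1* to *Col5a2* was 0.351, 0.208, 0.284 and 0.205, higher in the inguinal library of each cell type. *Col11a1*, whose chain can join type V chains, had a ratio to *Col5a2* of 0.00304, 0.0111, 0.126 and 0.03195. *Col8a1* exceeded *Col8a2* by 207-fold (149 to 296), 354-fold (271 to 471), 50.4-fold (46.8 to 54.3) and 81.4-fold (74.2 to 89.5). These ratios count captured 3′ ends and say nothing of the protein.

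**Figure D4:**
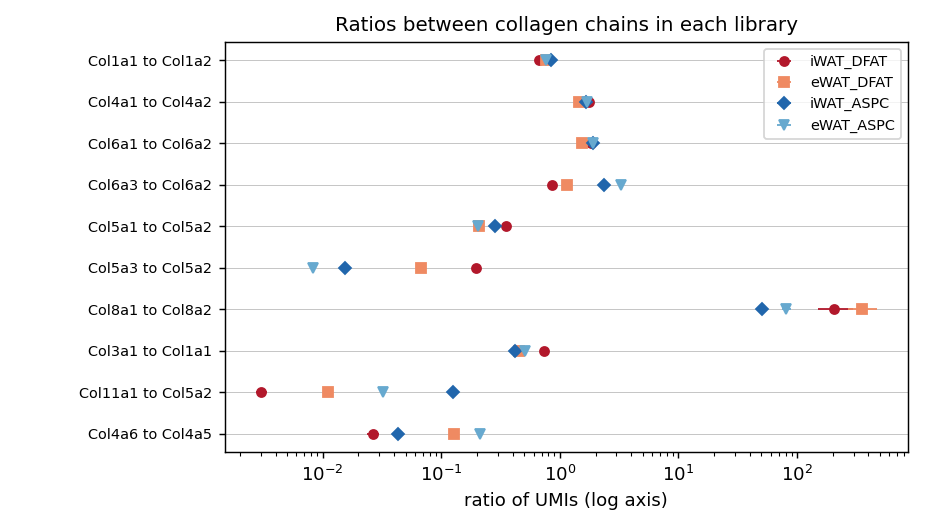
Each row is the ratio of UMIs of 2 chains on a log axis, with 1 point per library and its exact 95% counting interval. The *Col1a1* to *Col1a2*, *Col4a1* to *Col4a2* and *Col6a1* to *Col6a2* points lie within 1.24-fold, while those of *Col5a3* to *Col5a2* span 23.8-fold.

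Across single barcodes, thinned to 5000 UMIs, the type I chains went together. The Spearman correlation of *Col1a1* and *Col1a2* was 0.78, 0.69, 0.67 and 0.63 over the barcodes of the 4 libraries, and that of *Col4a1* and *Col4a2* was 0.37, 0.47, 0.52 and 0.46. That of *Col1a1* and *Col4a1* was 0.04, 0.13, 0.17 and 0.23. The type I and type IV genes were thus each closer to their own partner than to each other. Barcodes of a library share its depth and preparation, so these are descriptions.

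Collagen also differed between barcodes high and low in other sets of genes. Barcodes with markers of another cell type were kept in these splits. Barcodes were ranked within each library by their share of UMIs from cell cycle genes. The top 25% had less summed collagen than the bottom 25% in all 4 libraries, with log2 ratios of -0.76, -0.37, -0.27 and -0.44. *Col8a1* went against the sum in the DFAT libraries, at 0.69 and 0.51, and was at -0.33 and -0.20 in the ASPC libraries. In eWAT_ASPC *Col11a1* at 0.59 and *Col6a3* at 0.22 also went against the sum, as did *Col4a6* at 0.27 in eWAT_DFAT. The top 25% were also deeper in all 4, with 28178 against 18750 UMIs at the median in iWAT_DFAT and 31562.5 against 26608.5 in eWAT_ASPC, and the part of depth was not tested. In the top 25% for contractile genes (smooth muscle actin and its partners), the summed network collagens were higher in all 4 libraries, by 0.38, 0.56, 0.42 and 0.24, while fibrillar collagens were at -0.18, 0.95, -0.47 and -0.25. Contractile genes made up 0.224%, 0.518%, 0.963% and 0.931% of UMIs in the bottom 25% and 0.791%, 2.66%, 3.77% and 5.21% in the top 25%. The top 25% of iWAT_DFAT were thus below the bottom 25% of both ASPC libraries. The contractile top 25% were deeper in all 4 libraries, with medians of 26157 against 17697, 29067 against 25305.5, 28241.5 against 20830 and 30352.5 against 22993 UMIs. *Col4a1* was at 0.30, 0.49, 0.49 and 0.37 and *Col4a2* at 0.31, 0.56, 0.46 and 0.31. *Col4a5* was at 0.18, 0.63, 0.29 and -0.35 and *Col4a6* at 0.40, 0.50, 0.78 and -0.98, so in eWAT_ASPC these chains went against the sum. *Col4a6* was also high in the mesothelial-marker barcodes of eWAT_ASPC described further on, and their part in its value was not tested. *Col8a1* was at 1.82 and 1.06 in the DFAT libraries and 0.03 and -0.02 in the ASPC libraries. *Col24a1* was lower in the contractile top 25% of every library, at -0.53, -2.81, -2.16 and -3.69. In the epididymal libraries, which gave the lowest of these values, mesothelial-marker barcodes held it at 166 against 8.075 CPM (eWAT_DFAT) and 8.20 against 0.177 CPM (eWAT_ASPC, 97 of its 131 UMIs), and their part in the split was not tested.

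Immune response genes, a list of chemokines, acute phase genes and adhesion molecules, made up 0.623% of UMIs in the bottom and 2.85% in the top 25% of iWAT_DFAT, and 0.0619% and 0.274% in those of iWAT_ASPC. Fibrillar collagens were higher in the top 25% by 0.90 in iWAT_DFAT, 0.45 in eWAT_DFAT and 0.34 in eWAT_ASPC, and stood at -0.24 in iWAT_ASPC. *Col3a1* was at 1.53, 1.40, -0.22 and 0.65, and *Col14a1* at 1.82, 1.48, -1.89 and 1.0. For both genes iWAT_ASPC was the library that went the other way, and the difference was not tested. In the same split of iWAT_ASPC *Col18a1* was at 9.64 CPM in the top and 110 CPM in the bottom 25%, beside 4.21 and 15.6 CPM for *Col14a1*. Both were high in the Schwann-marker barcodes described further on, *Col14a1* at 257 CPM. The part of these barcodes was not tested. Median depth in the top 25% was 18473 against 24936 UMIs in iWAT_DFAT and 26883 against 20749.5 in iWAT_ASPC.

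Barcodes with markers of another cell type differed from the rest in their collagens, and the sets overlapped between types, with *Col18a1* high for both endothelial and Schwann markers. A barcode was taken here when it had UMIs for at least 6 of 12 endothelial, 5 of 10 Schwann cell, 5 of 9 mesothelial or 5 of 10 adipocyte markers, a rule chosen after a looser one had been seen. This gave 20, 147, 53 and 132 endothelial, 15, 2, 134 and 0 Schwann, 0, 37, 0 and 469 mesothelial and 17, 107, 0 and 1 adipocyte barcodes. The summed level of each list over a whole library was 27.2 to 109.5 CPM for endothelial, 4.07 to 38.8 for Schwann, 5.92 to 126 for mesothelial and 2.46 to 115 for adipocyte markers. Of these markers *Lep* was at 0 in all libraries, *Pck1* in 3, and *Msln*, *Muc16* and *Foxd3* each in 1. None of these lists contains a collagen, and levels are set beside the barcodes of the same library without 3 markers of any such type. Their median depth was lower, 11453.5 to 21239 UMIs against 22117 to 27896.5 in those other barcodes.

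Endothelial-marker barcodes had *Col18a1* at 566, 352, 242 and 258 CPM against 28.5, 13.2, 8.51 and 11.1 CPM in the others. *Col4a1* there was at 1137, 1753, 1299 and 879 CPM against 359, 543, 888 and 1026 CPM. The gap of *Col18a1* held in every library, with log2 ratios of 4.31 to 4.83, whereas that of *Col4a1* was 1.66 and 1.69 in the DFAT libraries, 0.55 in iWAT_ASPC and -0.22 in eWAT_ASPC. *Col23a1* was at 43.4 against 0.694 CPM in iWAT_ASPC and 30.4 against 0.429 CPM in eWAT_ASPC, but at 28.8 against 23.1 CPM in iWAT_DFAT, where cells without such markers also had it, and at 0.843 against 2.30 CPM in eWAT_DFAT, on 2 UMIs. *Col13a1* had 19 UMIs (45.6 CPM) in the 20 barcodes of iWAT_DFAT and stood at 0.0499 CPM in the others, but had 6 UMIs (2.53 CPM) in eWAT_DFAT, 7 UMIs (6.75 CPM) in iWAT_ASPC and 0 UMIs in the 132 barcodes of eWAT_ASPC.

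Schwann-marker barcodes of iWAT_ASPC had *Col18a1* at 2083 against 8.51 CPM (log2 ratio 7.94, 7.85 to 8.02). *Col14a1* was at 257 against 4.44 CPM, *Col28a1* at 196 against 9.03 CPM and *Col27a1* at 71.4 against 6.01 CPM. In the same barcodes *Col12a1* was lower, at 103 against 395 CPM. Mesothelial-marker barcodes of eWAT_ASPC had *Col4a6* at 106 against 24.4 CPM, *Col6a1* at 214.5 against 58.4 CPM and *Col24a1* at 8.20 against 0.177 CPM. Those of eWAT_DFAT had *Col24a1* at 166 against 8.075 CPM and *Col4a6* at 87.5 against 12.75 CPM. *Col14a1*, *Col15a1*, *Col28a1* and *Col12a1* were lower in the mesothelial-marker barcodes of eWAT_ASPC, with log2 ratios of -2.16, -2.57, -2.89 and -2.65.

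The 107 adipocyte-marker barcodes of eWAT_DFAT had little type I collagen. *Col1a1* was at 109 against 719 CPM, *Col1a2* at 146 against 934 CPM and *Col3a1* at 45.5 against 323 CPM. *Col6a1* was at 369 against 91.7 CPM, *Col6a2* at 220.1 against 59.9 CPM, *Col6a3* at 166 against 68.0 CPM, *Col5a3* at 154 against 32.2 CPM and *Col15a1* at 178 against 59.1 CPM. *Col4a1* was closer, at 637 against 543 CPM. In this library all 3 main type VI genes, *Col5a3* and *Col15a1* were thus higher, and types I and III lower, in the adipocyte-marker barcodes. The 17 such barcodes of iWAT_DFAT were under the minimum of 20 and were not measured.

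**Figure D5:**
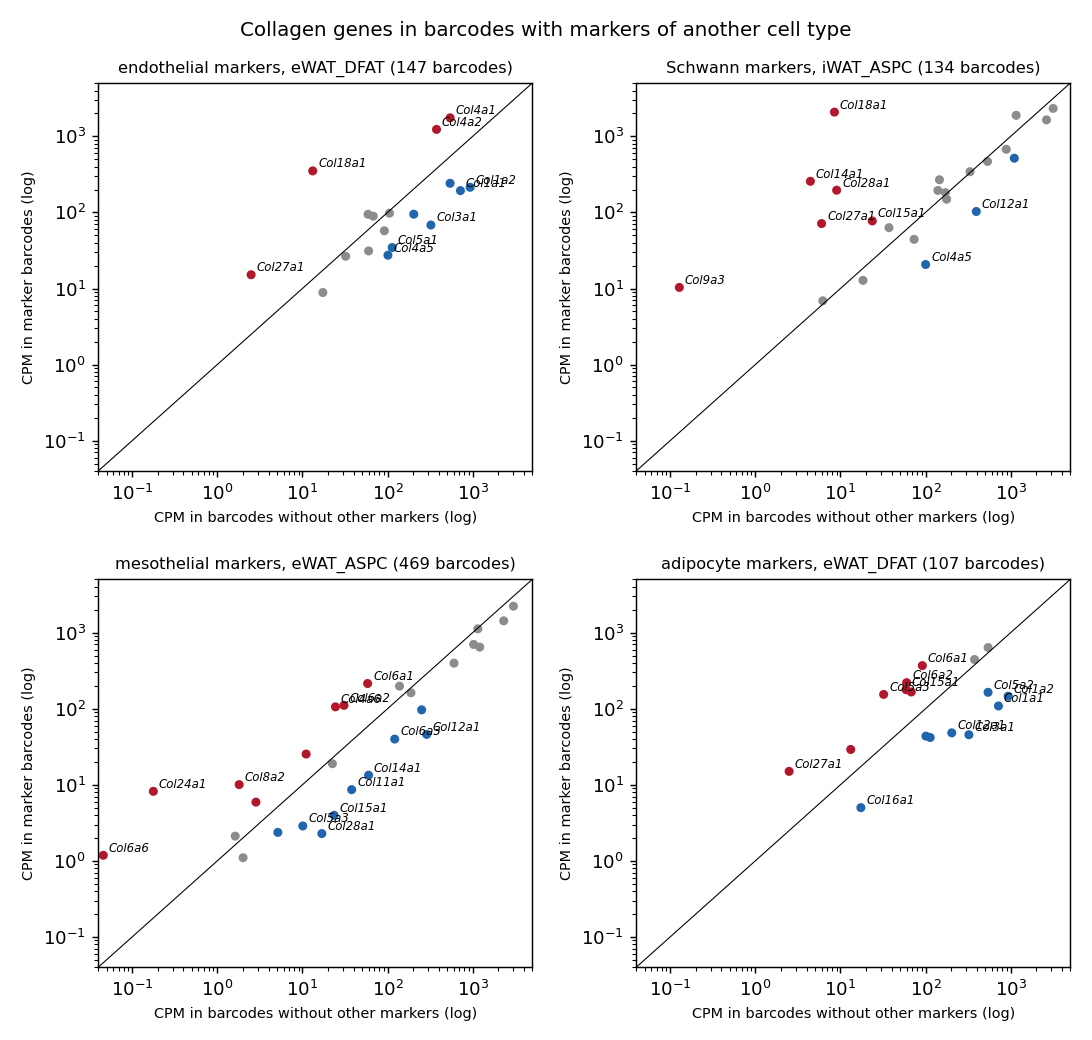
Each point is a collagen gene with at least 10 UMIs in the marker barcodes of the named library, plotted by its CPM there against its CPM in barcodes without markers of another type, on log axes with the line of equality; red and blue mark 2-fold higher and lower. *Col18a1* stands off the line for endothelial and Schwann markers, *Col24a1* and *Col4a6* for mesothelial markers and *Col6a1* for adipocyte markers.

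Genes that modify, fold, trim, crosslink or bind collagen were read from 5 lists with 47 genes, of which 41 reached the mean of 5 CPM. Past 2-fold higher and lower were 4 and 4 between iWAT_DFAT and eWAT_DFAT (7.43% and 3.59% of all genes), and 3 and 5 between iWAT_ASPC and eWAT_ASPC (2.74% and 3.4%). They were 2 and 6 for iWAT_DFAT against iWAT_ASPC (8.9% and 4.83%), and 2 and 6 for eWAT_DFAT against eWAT_ASPC (5.72% and 5.94%). In the same order of comparisons their median log2 ratios were 0.29, 0.07, -0.05 and -0.38. None of 11 folding and export genes was past 2-fold in 3 of the comparisons, and between the ASPC libraries *Tmem38b*, an ion channel of the endoplasmic reticulum, was lower in iWAT_ASPC at 16.6 against 38.7 CPM. *Lox*, the oxidase that starts crosslinking, was at 777 against 1636 CPM for iWAT_DFAT and iWAT_ASPC and at 352 against 1365 CPM for eWAT_DFAT and eWAT_ASPC.

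Among 13 tested genes of prolyl and lysyl modification, *P4ha3*, a prolyl hydroxylase subunit, had the highest ratio of iWAT to eWAT in both cell types, at 12.9 against 5.04 CPM in DFAT cells and 38.8 against 11.3 CPM in ASPCs. *Plod2*, the lysyl hydroxylase of telopeptides, was lower in iWAT, at 46.8 against 103 CPM and 93.5 against 241 CPM. In the propeptide list, *Tll1*, a relative of the procollagen C-proteinase *Bmp1*, was at 4.44 CPM in iWAT_DFAT against 36.5 CPM in iWAT_ASPC. In the epididymal libraries it went the other way, at 48.2 CPM in eWAT_DFAT against 16.2 CPM in eWAT_ASPC. *Bmp1* was 2-fold or more higher in iWAT_DFAT than in eWAT_DFAT at 174 against 77.3 CPM. *Adamts14*, an N-proteinase of procollagen like *Adamts2*, was at 21.7 CPM in eWAT_DFAT against 5.50 CPM in eWAT_ASPC, *Adamts2* at 287 CPM in iWAT_DFAT against 132 CPM in iWAT_ASPC, and *Pcolce2*, an enhancer of C-propeptide removal, at 16.4 CPM in iWAT_ASPC against 83.0 CPM in eWAT_ASPC. Among receptors, *Itga11*, an integrin for fibrillar collagen, was at 2.71 against 19.9 CPM in iWAT_DFAT and iWAT_ASPC and at 3.86 against 60.9 CPM in eWAT_DFAT and eWAT_ASPC, whereas *Ddr2*, a receptor kinase for fibrillar collagen, was at 368.5 against 229 CPM and 235.5 against 167 CPM.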

How the data were processed

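The deposited values are UMI counts per gene and droplet barcode, which the authors made with Cell Ranger against mm10, before any cell filter or removal of background. The submitters' processing notes name Cell Ranger 7.0.0, the file headers version 7.1.0 for 3 libraries and version 4 for iWAT_ASPC, and the Methods state that intron reads were included. Whether introns were counted alike in all 4 libraries is not settled by these sources, which bears on every ratio with iWAT_ASPC. Between iWAT_ASPC and eWAT_ASPC the median log2 ratio of genes, from the shortest to the longest introns in 4 equal groups, was -0.00, 0.04, 0.07 and 0.11, and between iWAT_DFAT and iWAT_ASPC it was -0.06, 0.03, 0.13 and 0.25. Without iWAT_ASPC it was -0.04, 0.03, 0.11 and 0.22 between iWAT_DFAT and eWAT_DFAT, and -0.00, 0.04, 0.09 and 0.14 between eWAT_DFAT and eWAT_ASPC.

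From these counts, barcodes were filtered as stated in the report, with a minimum of 5000 UMIs in place of the 500 in the Methods. No doublets were removed. UMIs were summed per library and scaled to CPM. Levels carry exact Poisson, shares exact Clopper-Pearson and ratios exact conditional binomial 95% intervals. Only the ratio intervals were tried on simulated counts. Those counts were drawn from the Poisson model that the intervals assume, so extra spread between cells was not tried. Detection was measured after thinning to 5000 UMIs. "Past 2-fold" is a size rule and not a test. Gene positions are from GENCODE M21 (GRCm38).

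The members and lists were chosen with earlier results of these data known. All 44 members are accounted for. Values in all libraries are given for those at 100 CPM or more anywhere, for those at a mean of 5 CPM or more with a log2 ratio of at least 2 in size, and for partner chains, and of each pathway list the gene with the largest ratio in each direction was eligible. Col15a1, Col16a1, Col18a1 and the genes named for marker barcodes were added after their values had been seen. The tools were scanpy 1.11.5 (for Scrublet), pandas 2.3.3, matplotlib 3.10.9, scipy 1.17.1 and numpy 2.4.6 under Python 3.11.15.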

Additional observations from a re-analysis of the deposited data

Results flagged for a closer look

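For *Col11a1* and *Col14a1* the depots went opposite ways in DFAT cells and ASPCs, past 2-fold in each, with 1 library per group, and the difference was not tested. The log2 ratio of iWAT against eWAT was -1.71 in DFAT cells and 1.99 in ASPCs for *Col11a1*, and 1.45 in DFAT cells and -2.98 in ASPCs for *Col14a1*. Over 13 alternatives the values stayed between -1.90 and -1.54 and between 1.88 and 2.41 for *Col11a1*, and between 1.13 and 1.69 and between -3.75 and -2.31 for *Col14a1*. In DFAT cells *Col11a1* was low, at 1.80 CPM (iWAT_DFAT) and 5.92 CPM (eWAT_DFAT), beside 1.24 and 4.86 CPM in their free RNA. *Col14a1* was high in the Schwann-marker barcodes of iWAT_ASPC (257 CPM), and its value between the ASPC libraries without barcodes with markers of another type was -3.75.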

How the results depend on the processing

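Each condition rests on 1 library, so differences between cultures, animals or runs cannot be told apart from those between conditions. An additive fit of depot and cell type, which would take the depots as replicates, was not run. Over 13 alternatives, 46 of 47 member ratios past 2-fold kept their direction, 40 stayed past 2-fold in all 13, and all 16 class ratios kept their direction. The exception in direction was *Col18a1* between iWAT_ASPC and eWAT_ASPC, at -0.38 without barcodes with 3 markers of another type. Of all 96 member ratios, past 2-fold or not, 10 changed sign within the alternatives, this one among them. Moves are judged against counting intervals, which are narrow at this depth. Genes near 1 CPM, such as *Col24a1* in ASPCs, rest on few barcodes.

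The summed log2 ratios are listed in the order iWAT_DFAT against eWAT_DFAT, iWAT_ASPC against eWAT_ASPC, iWAT_DFAT against iWAT_ASPC and eWAT_DFAT against eWAT_ASPC, 0.83, 0.11, -0.52 and -1.24. With no upper limit on genes they were 0.82, 0.11, -0.54 and -1.25. With free RNA subtracted at 5% they were 0.83, 0.10, -0.51 and -1.24, and at 10% 0.82, 0.08, -0.51 and -1.24. Scaling without collagen gave 0.84, 0.11, -0.53 and -1.25, and without mitochondrial and ribosomal UMIs 0.83, 0.13, -0.54 and -1.24. Median-of-ratios scaling gave 0.81, 0.00, -0.60 and -1.41, while the median of all genes moved from 0.07 to -0.11 for eWAT_DFAT against eWAT_ASPC. Means over cells gave 0.89, 0.15, -0.44 and -1.18, thinned counts 0.89, 0.15, -0.44 and -1.17, and the 25% of barcodes lowest in cell cycle UMIs 1.06, 0.08, -0.20 and -1.18. Without other-marker barcodes the 4 values were 0.84, 0.07, -0.52 and -1.29. A minimum of 500 UMIs gave 0.84, 0.11, -0.52 and -1.24, and a limit of 20% mitochondrial UMIs or removal of the highest Scrublet scores gave 0.83, 0.11, -0.52 and -1.24.

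Counts of members past 2-fold moved by over 1.5 times in few cases. A fold of 1.5 gave 7 lower for iWAT_DFAT against eWAT_DFAT (4 at 2-fold), 8 higher for iWAT_ASPC against eWAT_ASPC (5 at 2-fold) and 9 lower for iWAT_DFAT against iWAT_ASPC (5 at 2-fold). Between the ASPC libraries, median-of-ratios scaling gave 2 higher, and a minimum mean of 20 CPM gave 1 lower in place of 2. In the 25% of barcodes lowest in cell cycle UMIs, 7 in place of 4 were higher in eWAT_DFAT than in eWAT_ASPC. The cause was not tested.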

Other observations

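Among the 24 members at a mean of 5 CPM or more, 4 pairs are neighbours in the genome within 200 kb. *Col3a1* and *Col5a2* lie 24614 bases apart on chromosome 1 on opposite strands, with log2 ratios of 1.86 and 0.15 between iWAT_DFAT and eWAT_DFAT and of 0.08 and -0.98 between iWAT_DFAT and iWAT_ASPC. *Col6a2* and *Col6a1* lie 85161 bases apart on the same strand of chromosome 10, with 1.24 and 1.49 and with 1.13 and 1.07. *Col4a6* and *Col4a5* lie head to head 1308 bases apart on chromosome X, with -3.08 and -0.80 and with -1.52 and -0.81. *Col4a1* and *Col4a2* on chromosome 8 had -0.65 and -0.94 and then -1.29 and -1.39.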
